A study of Mus musculus with 6 samples.

Results

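The Ly49 receptor family was examined through the 10 rows of the deposited gene table whose symbols are Klra1, Klra2, Klra3, Klra4, Klra5, Klra6, Klra7, Klra8, Klra9 and Klra17, out of 57180 genes in the table. All 10 had enough counts to be tested, within a set of 14761 tested genes. RNA came from liver cells sorted as NK cells, gated as CD3- NK1.1+, and separated by CD36. They were taken from male C57BL/6J mice aged 6 to 8 weeks. Every mouse had liver fibrosis induced by carbon tetrachloride (CCl4), given as 2.5 ml/kg of a 20% solution in 2 injections per week for 4 weeks, and was taken 48 h after the last injection. The CD36+ NK group and the CD36- NK group each had 3 bulk RNA-seq libraries, and no library came from an uninjured liver. The comparison asked how NK cells that carry the fatty acid receptor CD36 differ from those that do not in the fibrotic liver. The labels do not say whether the libraries of a group came from separate animals, so p-values measure the spread between these samples, which may be technical.

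Ly49 receptors are C-type-lectin-like membrane proteins with which mouse NK cells read MHC class I molecules on other cells. Each NK cell expresses its own combination of them, and the genes lie side by side in the natural killer gene complex. Inhibitory members carry an ITIM motif in the cytoplasmic tail and recruit the phosphatase SHP-1 (Ptpn6), whereas the activating members Klra4 (Ly49D) and Klra8 (Ly49H) have no such motif and signal through the adaptors DAP12 (Tyrobp) and DAP10 (Hcst).

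Cd36, the gene of the sorted marker, stood at 109.7, 262.6 and 237.7 CPM (library-size-adjusted counts after TMM scaling, used throughout) in CD36+ NK replicates 1 to 3, against 14.3, 31.7 and 17.1 CPM in CD36- NK. Klrb1c, which encodes the gated NK1.1 antigen, was lower, with 77.9 to 105.7 CPM in CD36+ NK against 448.5 to 524.3 CPM, and 9 of 10 NK lineage genes were lower in CD36+ NK (median log2 fold change -2.35). Of 8 markers of conventional NK cells 5 were lower and 0 higher, and the median of their log2 fold changes was -1.75. Transcripts of other cell types were present in both groups. Summed over the list, the 10 NK lineage genes ran from 957.6 to 1158 CPM in CD36+ NK against 4433 to 5730 in CD36- NK. The sums of 7 B cell markers, 10865 to 12669 against 6605 to 8743 CPM, were higher than these in both groups. Sums over different genes are not shares of cells. The sums of 11 macrophage and Kupffer cell markers ran from 6556 to 9070 against 2417 to 5696, and those of 7 erythroid markers from 344.7 to 778.6 against 74.7 to 163.4. Endothelial markers summed to 213.2 to 307.3 against 154.1 to 169.9 CPM and monocyte markers to 1211 to 2119 against 1690 to 2632. The sum of 8 conventional dendritic markers was 301.1 to 365 against 480.8 to 661.3 CPM, most of it Itgax, which was lower in CD36+ NK, whereas Xcr1 (log2 fold change 2.46) and Clec9a (2.03) were higher and the list's median was 0.32. The 9 T cell markers summed to 390 CPM in CD36+ NK replicate 1 but to 59.2 and 65.5 in the other CD36+ NK libraries and to 146.4 to 188.3 in CD36- NK, so that this library stood apart. Trbc1, which made up most of the CD36- NK sum, was lower in CD36+ NK (edgeR adjusted p = 0.0182). Cd4 (log2 fold change 2.34) and Cd8a (3.17) were higher without overlap between the groups. The list's median, 2.22, was the value of Trac and rested on CD36+ NK replicate 1. Trac was at 45.8, 1.47 and 0.831 CPM in CD36+ NK and at 4.38, 3.18 and 2.64 CPM in CD36- NK. Bulk RNA cannot tell fewer NK cells in a library from less RNA of a gene per NK cell, and the part of these other cells in the results below was not tested.

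Of the 10 receptor genes, 8 were lower in CD36+ NK and 0 were higher, by edgeR's quasi-likelihood test with an adjusted p under 0.05 and a difference of more than 2-fold. Over all tested genes 2.98% were lower in CD36+ NK and 2.98% were higher by the same rule. The median log2 fold change of the 10 genes was -2.45, beside 0.01 over all tested genes. The same 8 genes had all CD36+ NK libraries below all CD36- NK libraries in CPM, which 15.7% of tested genes did. Each of the 8 reached the level of the count filter in all 6 libraries. Klra2 (Ly49B) and Klra17 (Ly49Q) were the exceptions. No member was higher even at an unadjusted p below 0.05 (0 genes), and edgeR's exact test and DESeq2 also called 0 members higher. Summed over the 10 genes, the level was 211.2, 288 and 264 CPM in CD36+ NK and 1012, 1007 and 1264 CPM in CD36- NK.

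**Figure D1:**
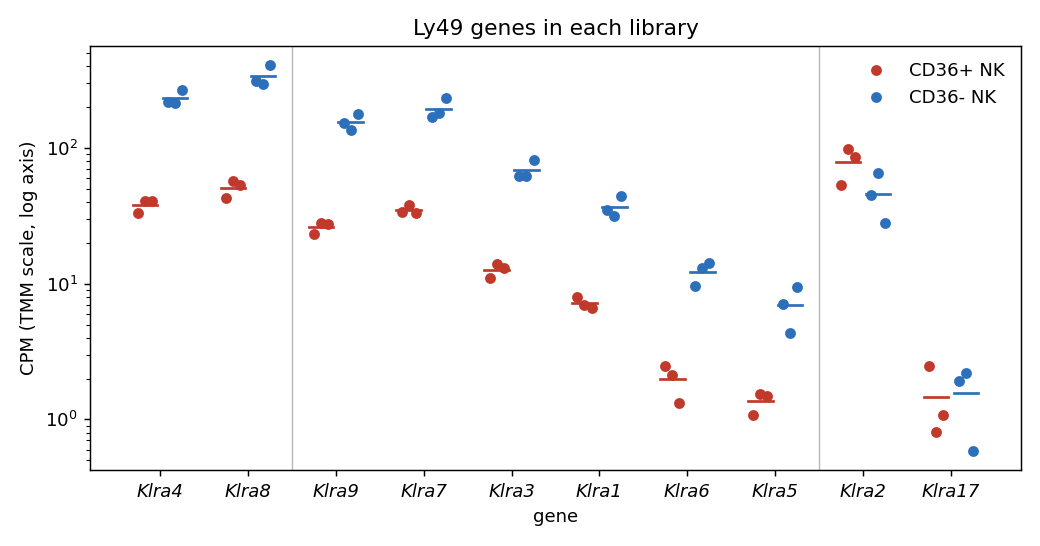
CPM on a log axis for each of the 10 genes, with 1 point per library and a bar at the mean of the 3 libraries of a group. The activating Klra4 and Klra8 are at the left, the inhibitory genes that were lower in CD36+ NK in the middle, and Klra2 and Klra17, whose groups overlap, at the right.

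Sequence upstream of the genes is shown because 8 of them moved together and 2 did not. RefSeq (GRCm38.p6) gives windows from 250 bases before to 50 bases after the start for 10 of 10 members. The longest run held exactly by at least 8 members, searched on the gene's strand, was 11 bases long, GCAATTTCCTC. Searched on both strands, it occurs in the windows of 18 of 27025 mouse genes (0.0666%). A second run of this length, TTTCCTCTTTT, also reached 8 members but occurs in 46 genes, and its first bases overlap the last bases of the run above. Klra1 and Klra7 had no exact copy in these windows, and Klra7 had a copy with 1 base changed upstream of another of its RefSeq starts. Capitals mark the 11-base run, the sequences end at or before the RefSeq start, and each is written 5′ to 3′ on the gene's strand.
Klra8 (chr6:130129923-130130022, minus strand, activating): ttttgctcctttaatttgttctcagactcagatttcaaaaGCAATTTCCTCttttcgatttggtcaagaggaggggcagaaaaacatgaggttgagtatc
Klra4 (chr6:130067295-130067394, minus strand, activating): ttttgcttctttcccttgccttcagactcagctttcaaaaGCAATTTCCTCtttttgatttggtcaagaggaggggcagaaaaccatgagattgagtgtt
Klra9 (chr6:130193113-130193194, minus strand, inhibitory): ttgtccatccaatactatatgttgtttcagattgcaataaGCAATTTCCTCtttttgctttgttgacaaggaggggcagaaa
Klra5 (chr6:129913259-129913358, minus strand, inhibitory): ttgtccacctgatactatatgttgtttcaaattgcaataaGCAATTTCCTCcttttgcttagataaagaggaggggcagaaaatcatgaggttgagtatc
Klra7 (chr6:130233356-130233455, minus strand, inhibitory, changed copy): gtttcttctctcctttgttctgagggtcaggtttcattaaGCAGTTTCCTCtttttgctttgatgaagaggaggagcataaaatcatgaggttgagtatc
Klra2 (chr6:131247378-131247477, minus strand, not lower): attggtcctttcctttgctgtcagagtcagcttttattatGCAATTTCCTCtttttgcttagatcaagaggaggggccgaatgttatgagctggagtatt
Klra17 (chr6:129876691-129876790, minus strand, not lower): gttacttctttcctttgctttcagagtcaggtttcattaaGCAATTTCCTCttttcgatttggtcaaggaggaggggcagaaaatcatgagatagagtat
Klra2 and Klra17, which were not lower in CD36+ NK, held exact copies, and Klra1 and Klra7, which were lower, did not. The presence of the run therefore did not separate the genes that were lower from the others. A match of letters is a description and not a binding site.

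The activating receptors were low in every CD36+ NK library. Klra8 (ENSMUSG00000089727), the receptor for a protein of mouse cytomegalovirus, was at 42.6, 57.2 and 53.0 CPM in CD36+ NK and at 309.6, 294.7 and 406.9 CPM in CD36- NK. The log2 fold change of Klra8 was -2.72 ± 0.173 (SE, n = 3 per group; edgeR adjusted p = 0.000428), a 6.61-fold lower level. Klra4 (ENSMUSG00000079852) was at 33.3, 40.5 and 40.5 CPM against 218.8, 215.4 and 268.3 CPM, with a log2 fold change of -2.62 ± 0.135 (edgeR adjusted p = 0.000428). In both genes the highest CD36+ NK library lay far below the lowest CD36- NK library.

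The well-expressed inhibitory receptors showed the same order of groups. Klra7 (Ly49G, ENSMUSG00000067599) was at 34.0, 38.2 and 33.4 CPM in CD36+ NK and at 169.7, 181.8 and 233.1 CPM in CD36- NK, with a log2 fold change of -2.47 ± 0.144 (edgeR adjusted p = 0.000428). Klra9 (Ly49I, ENSMUSG00000033024) was at 23.1, 28.2 and 27.5 CPM against 152.9, 136.2 and 178.9 CPM, with a log2 fold change of -2.57 ± 0.139 (edgeR adjusted p = 0.000428). Klra3 (Ly49C, ENSMUSG00000067591), closely related to Klra9 in sequence, was at 11, 13.9 and 13 CPM against 62.6, 62.5 and 81.1 CPM, with a log2 fold change of -2.44 ± 0.154 (edgeR adjusted p = 0.000428). Klra1 (Ly49A, ENSMUSG00000079853), the first of the family to be tied to MHC class I recognition, was lower as well. It was at 8.01, 6.99 and 6.57 CPM against 35.2, 31.6 and 43.9 CPM, with a log2 fold change of -2.36 ± 0.168 (edgeR adjusted p = 0.000645). None of these 4 genes overlapped between the groups.

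Klra6 (Ly49F) and Klra5 (Ly49E) were scarce but followed the same direction. Klra6 (ENSMUSG00000061769) had 28, 29 and 16 counts in CD36+ NK and 125, 148 and 144 counts in CD36- NK, with a log2 fold change of -2.62 ± 0.281 (edgeR adjusted p = 0.00318). Klra5 (ENSMUSG00000030173), known from fetal NK cells and liver-resident type 1 innate lymphocytes, had 12, 21 and 18 counts against 92, 49 and 96 counts, with a log2 fold change of -2.32 ± 0.347 (edgeR adjusted p = 0.0093). The groups did not overlap in either gene, although CD36- NK replicate 2 held fewer Klra5 counts than the other libraries of its group. Over 9 tested markers of liver type 1 innate lymphocytes the median of the log2 fold changes was -0.30, and 1 gene was lower in CD36+ NK and 0 were higher. Their most abundant genes, Tmem176b, Tmem176a and Inpp4b, had log2 fold changes of -0.28, -0.25 and 0.63 and did not pass the test. Itga1, which encodes the CD49a chain that defines these cells in the liver, and Tnfsf10, which encodes TRAIL, both had -0.90 (edgeR adjusted p = 0.00996 and 0.0345) without overlap, short of the fold threshold.

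The 8 fold changes lay close together, between -2.72 and -2.32 on the log2 scale. Summed CPM of the activating pair was 75.9, 97.7 and 93.5 in CD36+ NK and 528.4, 510.1 and 675.2 in CD36- NK, a log2 ratio of the means of -2.68. Summed CPM of the 6 lower inhibitory genes was 79.7, 90.9 and 83.3 against 437, 429.4 and 560.4, a log2 ratio of -2.49. Within the summed FPKM (fragments scaled by gene length and library total) of these 8 genes, Klra4 and Klra8 together made up 58.4, 61.2 and 62.2% in CD36+ NK and 63.8, 63.5 and 63.9% in CD36- NK. The share of Klra4 alone overlapped between the groups, at 24.8, 24.6 and 26.1% against 25.6, 25.9 and 24.5%. The shares of the pair did not overlap, but the two-sided exact permutation p was 0.1, the smallest that 3 libraries against 3 can give.

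**Figure D2:**
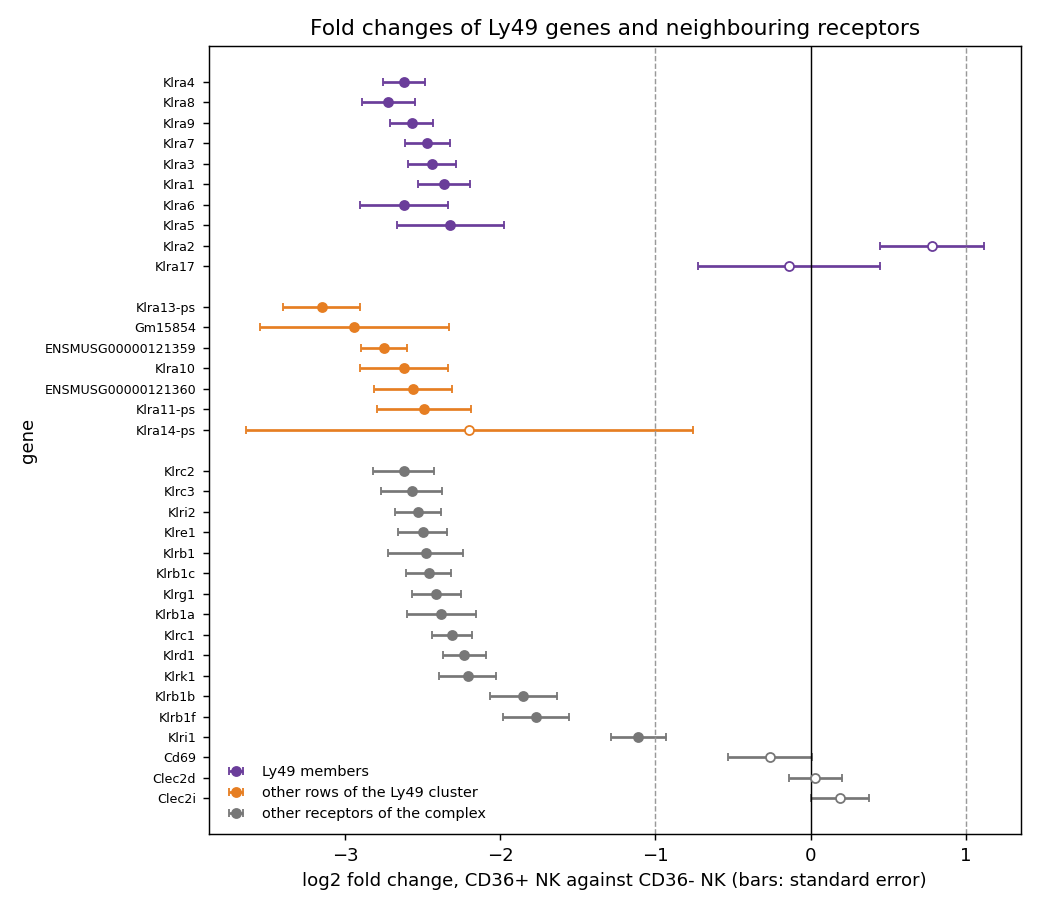
Log2 fold changes of CD36+ NK against CD36- NK with standard errors for the 10 Ly49 genes, 7 other rows of the Ly49 cluster and 17 tested receptors of the natural killer gene complex outside the family. Filled points passed the test and the fold threshold of 2, whose log2 is drawn as dashed lines, and open points did not. Klra2 lies at 0.78 and Klra17 at -0.14, away from the other Ly49 genes, and Gm15854 was tested only because of its level in CD36- NK.

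Klra2 (ENSMUSG00000030187) was the one member with a positive fold change. Ly49B is known mainly from myeloid cells. Its counts were 597, 1339 and 1035 in CD36+ NK and 581, 742 and 287 in CD36- NK, or 53.1, 98.5 and 86.0 CPM against 44.7, 65.6 and 28.0 CPM. The groups overlapped, because CD36+ NK replicate 1 lay below CD36- NK replicate 2. The log2 fold change was 0.78 ± 0.335 (edgeR adjusted p = 0.194), so Klra2 was not called, and it ranged from 0.51 to 1.12 over 15 refits with adjusted p from 0.0694 to 0.422.

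Macrophage markers were examined beside Klra2. Of 11 macrophage and Kupffer markers 9 were tested, 3 were higher in CD36+ NK and 0 were lower, and the median of the log2 fold changes was 2.90. Their summed level was 6556, 7596 and 9070 CPM in CD36+ NK replicates 1 to 3 and 5301, 5696 and 2417 CPM in CD36- NK replicates 1 to 3. CD36- NK replicate 3 was lowest for both this sum and Klra2, and CD36+ NK replicates 2 and 3 were highest for both. The order differed between the remaining libraries, since CD36+ NK replicate 1 had a higher sum than CD36- NK replicate 2 but less Klra2. Lyz2 made up much of the sum at 2052 to 4747 CPM and had a log2 fold change of 0.09, whereas C1qb, a complement component of tissue macrophages, was at 251.9, 379.7 and 707.6 CPM against 25.0, 132.1 and 26.1 CPM (log2 fold change 2.87, edgeR adjusted p = 0.0527). Csf1r, the receptor for the macrophage growth factor, was higher in CD36+ NK (log2 fold change 1.89, edgeR adjusted p = 0.0378). The Kupffer cell marker Clec4f was at 0 in all CD36- NK libraries and in CD36+ NK replicate 3, at 1.51 CPM in replicate 1 and at 45.9 CPM in replicate 2. The part of macrophage RNA in the Klra2 value was not tested.

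**Figure D3:**
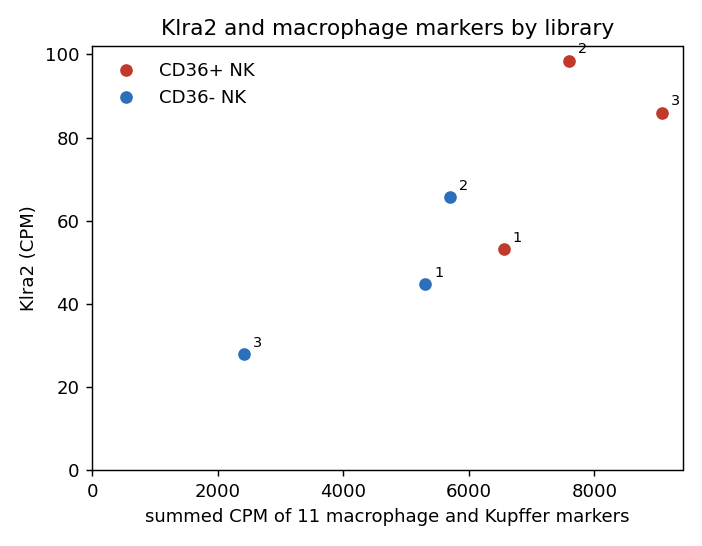
Klra2 in CPM against the summed CPM of 11 macrophage and Kupffer cell markers, 1 point per library, labelled with the replicate number. CD36- NK replicate 3 is lowest on both axes (28.0 and 2417 CPM), and CD36+ NK replicates 2 and 3 are highest on both.

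Klra17 (ENSMUSG00000014543), known from plasmacytoid dendritic cells and other myeloid cells, was barely detected. It had 28, 11 and 13 counts in CD36+ NK and 25, 25 and 6 counts in CD36- NK, and the groups overlapped. The log2 fold change was -0.14 ± 0.587 (edgeR adjusted p = 0.917). Leaving out CD36+ NK replicate 2 or 3, or CD36- NK replicate 1 or 2, turned the sign, with log2 fold changes of 0.16, 0.04, 0.02 and 0.18. Plasmacytoid dendritic markers had summed levels of 469.1 to 524.2 CPM in CD36+ NK against 346 to 400.9 CPM, with 0 of 9 called higher and a median of 0.24 for the log2 fold changes. The 1 gene called lower, Cox6a2, had 8, 11 and 4 against 24, 17 and 21 counts and passed the count filter only through CD36- NK. The most abundant gene of that list was Ly6d, which some B lineage cells express too, at 276.9, 293.2 and 248.9 CPM against 212.3, 182.3 and 147.5 CPM. Siglech, which defines that cell type, was at 1.95 to 4.27 CPM over the 6 libraries.

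Shares of the Ly49 transcripts were compared on the FPKM scale. Klra2 made up 20.1, 27.7 and 26.2% of the summed FPKM of the 10 genes in CD36+ NK and 3.24, 4.82 and 1.62% in CD36- NK. Klra8 made up 26.5, 26.4 and 26.5% against 36.9, 35.6 and 38.7% of the same total, which holds Klra2. Among the 8 lower genes alone Klra8 made up 33.6, 36.6 and 36.1% against 38.2, 37.5 and 39.3%. Neither share overlapped between the groups (two-sided exact permutation p = 0.1 for each, the smallest possible). By mean FPKM the order in CD36- NK was Klra8 (289 ± 47.5, SD, n = 3), Klra4 (190.1 ± 21.1), Klra9 (100.1 ± 12.1), Klra7 (93.8 ± 14.9), Klra3 (45.1 ± 6.32), Klra2 (24.2 ± 10.3), Klra1 (18.2 ± 2.81), Klra6 (11.1 ± 2.09), Klra5 (4.21 ± 1.47) and Klra17 (0.973 ± 0.545). Of these neighbours Klra9 and Klra7 overlapped, as did Klra2 and Klra1. In CD36+ NK the order was Klra8 (42.5 ± 5.63), Klra2 (40.1 ± 11.4), Klra4 (30.1 ± 2.67), Klra7 (16.5 ± 1.36), Klra9 (16.4 ± 1.44), Klra3 (8.07 ± 0.826), Klra1 (3.47 ± 0.454), Klra6 (1.76 ± 0.57), Klra17 (0.882 ± 0.568) and Klra5 (0.811 ± 0.141). There Klra2 overlapped with Klra8 and with Klra4, Klra7 with Klra9, and Klra17 with Klra6 and with Klra5.

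**Figure D4:**
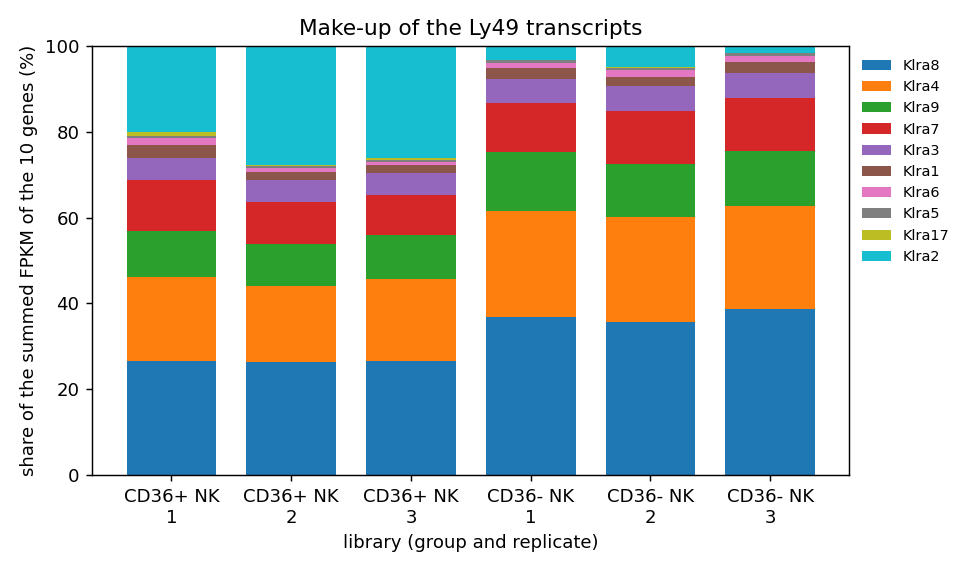
Share of each gene in the summed FPKM of the 10 Ly49 genes, 1 bar per library. Klra2 takes 20.1 to 27.7% in CD36+ NK against 1.62 to 4.82% in the other group, and Klra8 takes about the same share, 26.4 to 26.5%, in the 3 CD36+ NK libraries.

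The level of each gene was then set beside that of 10 NK lineage genes in the same library, since these were lower in CD36+ NK too. The measure was log2(CPM + 2) of the gene minus the mean of the same over Ncr1, Klrb1c, Klrk1, Nkg7, Prf1, Il2rb, Cd244a, Eomes, Tbx21 and Cd7. That mean was lower in CD36+ NK by 2.16 on this scale, with 6.58, 6.65 and 6.41 in CD36+ NK and 8.67, 8.56 and 8.88 in CD36- NK. For 4 of 10 members all CD36+ NK libraries still lay below all CD36- NK libraries, which 0.102% of tested genes (15 of 14761) did. They were Klra8 (difference -0.52 ± 0.151, SE), Klra4 (-0.40 ± 0.129), Klra9 (-0.32 ± 0.119) and Klra7 (-0.24 ± 0.0864). The pattern was not particular to the members. Those 15 genes also held the cluster rows Klra13-ps and ENSMUSG00000121359, the lectin-like receptors Klre1, Klri2 and Klrb1c of the same gene complex, and Prf1, Eomes, Gzma, Cma1, Il18rap and Adamts14. Klrb1c, Prf1 and Eomes belong to the reference itself, and any gene lies below only where it fell further than the reference mean. Cd244a fell least of the reference genes (log2 fold change -0.80), and the differences were not computed without it alone. Against another reference, conventional NK genes outside the complex, 6 members lay below, with Klra1 and Klra3 added. The differences moved with the reference, to -1.21 for Klra8, -1.09 for Klra4, -1.01 for Klra9, -0.93 for Klra7, -0.80 for Klra3 and -0.61 for Klra1.

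Klra3 (-0.11 ± 0.116) and Klra1 (0.08 ± 0.0782) overlapped between the groups against the main reference. Klra2 lay above in every CD36+ NK library, at -0.79, 0.00 and 0.05 against -3.12, -2.48 and -3.97. Differences of 3 genes moved by more than the larger SD of a group when the constant added to CPM was changed. Klra1 was at 0.08, Klra6 at 0.32 and Klra5 at 0.79 for a constant of 2. For a constant of 0.5 they were at -0.09, -0.19 and 0.24. Klra3 went from -0.11 to -0.22, within that spread. Klra17 differed by 2.11 ± 0.379, close to the 2.16 that a gene at the same CPM in both groups would show against this reference. The two-sided exact permutation p was 0.1 for each of the 7 members without overlap, so that none of the 10 comparisons could pass a threshold of 0.05.

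**Figure D5:**
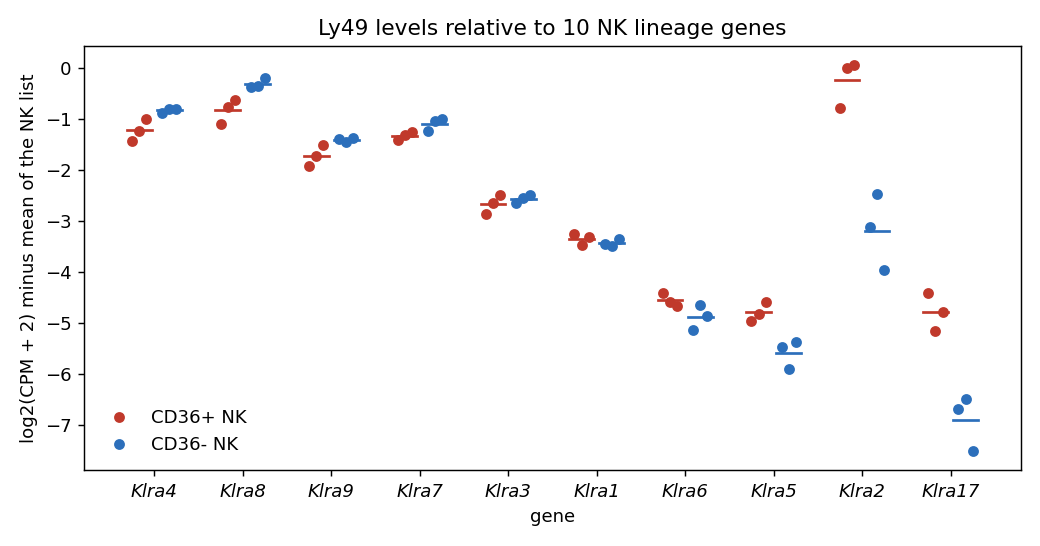
Log2(CPM + 2) of each gene minus the mean of 10 NK lineage genes in the same library, with 1 point per library and a bar at the group mean. Klra4, Klra8, Klra9 and Klra7 lie lower in all CD36+ NK libraries by means of 0.24 to 0.52, and Klra2 lies higher by a mean of 2.94.

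Similar paralogs limit how far the genes can be told apart, because a fragment that fits several of them may be counted for any. Over coding sequences of GENCODE vM21, Klra3 and Klra9 shared 95.9% of aligned bases, Klra8 and Klra9 91.9%, and Klra5 and Klra6 91.9%. Of the 100-base windows of its longest coding transcript, Klra8 had 14.4% that occur letter for letter in another Klra transcript, more of them in Klra14-ps than in any other, against 4.41% for Klra9, 2.29% for Klra7, 1.93% for Klra3 and 0 for the other 6 members. At 50 bases the share rose to 33.1% for Klra8, 32.4% for Klra9, 21.5% for Klra3 and 14.7% for Klra7, and it was 4.35% for Klra4, 3.15% for Klra1, 2.62% for Klra6 and 0.732% for Klra5. Klra2, whose nearest member was Klra7 at 76.7% identity, and Klra17 shared no 50-base window with any other Klra transcript. Values of Klra3, Klra7, Klra8 and Klra9 are therefore uncertain as to which gene each fragment came from, those of Klra1, Klra4, Klra5 and Klra6 less so by this measure, whereas Klra2 and Klra17 are not affected at these lengths. How the counting treated fragments with several matches is not given in the sources used here.

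Of 7 other rows of the cluster, 6 were called lower in CD36+ NK and 0 higher, and 1 of the 6, Gm15854, was tested only because of its level in CD36- NK. Klra10 had 33, 63 and 40 counts in CD36+ NK and 215, 240 and 307 in CD36- NK (log2 fold change -2.62 ± 0.283, edgeR adjusted p = 0.00321), and the pseudogene Klra11-ps had 13, 22 and 9 against 86, 68 and 77 counts (-2.49 ± 0.305, edgeR adjusted p = 0.00497). The row Klra13-ps was lower by a log2 fold change of -3.15 ± 0.246 (edgeR adjusted p = 0.000934), but an unnamed row, ENSMUSG00000121360, covers the same stretch, and together they held 346, 601 and 398 counts against 2393, 2758 and 3357. Klra14-ps had 4, 30 and 0 counts against 125, 0 and 26, a split that changed from library to library with the unnamed row ENSMUSG00000121359 at the same place. Summed, these rows held 120, 169 and 112 counts in CD36+ NK and 892, 707 and 838 in CD36- NK, without overlap and with a log2 ratio of mean CPM of -2.72. The row Gm15854, between the members, had 3, 1 and 4 against 15, 15 and 29 counts. It passed the count filter only through CD36- NK, where it is high, so that its call is no separate support.

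The 10 members lie on the minus strand of chromosome 6, in the table's own coordinates, for which no build is named. Klra17 begins the run at 129808117 and Klra1 ends it at 130363837, and Klra2 stands apart at 131196186 to 131224325. Receptors of the same gene complex outside the family were mostly lower too, with 14 of 17 tested called lower in CD36+ NK, 0 called higher and a median of -2.31 for the log2 fold changes. They included Klrc1, the inhibitory receptor NKG2A (-2.31, edgeR adjusted p = 0.000428), and Klri2, a lectin-like receptor (-2.53, edgeR adjusted p = 0.000428). Clec2d, a ligand of the NKR-P1 receptors, and Clec2i, also a ligand of that type, lay in the same complex and had log2 fold changes of 0.03 and 0.19 that did not pass the test. Klrh1 had 0 counts in all libraries.

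Most signalling partners of the family were not called. Of 19 tested genes of the signalling list 4 were lower in CD36+ NK and 0 were higher, and the median of the log2 fold changes was 0.07. Tyrobp, the adaptor DAP12 of the activating receptors, was at 259.5, 255.2 and 282.8 CPM in CD36+ NK and 381.5, 365.3 and 292.8 CPM in CD36- NK, with a log2 fold change of -0.38 (edgeR adjusted p = 0.0938). Myeloid cells express it too. Hcst, the adaptor DAP10, was at 17.6, 18.4 and 15.7 against 30.6, 32.5 and 35.2 CPM, with a log2 fold change of -0.92 (edgeR adjusted p = 0.00589) that lay short of the fold threshold. The groups did not overlap in either adaptor.

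The 4 lower signalling genes were Cd247, Zap70, Lck and Fyn, which T cells and NK cells use in receptor signalling. Fyn was at 170.3, 175.6 and 185.6 against 362.9, 363.0 and 529.2 CPM (log2 fold change -1.24, edgeR adjusted p = 0.00631). Cd247 (-2.06), Zap70 (-1.79) and Lck (-1.78) had CD36+ NK replicate 1 above the other libraries of its group, the library with the most T cell transcripts. Without CD36+ NK replicate 2, or without CD36- NK replicate 1 or 3, 1 gene of the list was called in place of 4. For Cd247 the edgeR adjusted p was 0.0144 with all libraries and 0.0564, 0.0549 and 0.0574 without these, at log2 fold changes of -1.85, -2.10 and -1.96. Without CD36+ NK replicate 1 the log2 fold changes were -2.63 for Cd247, -2.25 for Lck and -2.22 for Zap70 (edgeR adjusted p = 0.00193, 0.00193 and 0.00378). Ptpn6, the phosphatase SHP-1 that inhibitory members recruit, was at 613.3, 663.7 and 621.2 against 479.9, 480.1 and 355.4 CPM (log2 fold change 0.53, edgeR adjusted p = 0.0512). Lyn, a Src family kinase of B cells and myeloid cells, had 0.78 (edgeR adjusted p = 0.0266), under the fold threshold, and Syk 0.32 (edgeR adjusted p = 0.0611).

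None of the ligands was called. Of 13 tested genes of MHC class I molecules and their loading, 0 were lower and 0 higher in CD36+ NK, and the median of the log2 fold changes was -0.09. At an adjusted p below 0.05 with no fold threshold 1 of them, H2-Q7, was lower (log2 fold change -0.70, edgeR adjusted p = 0.01). B2m, the light chain shared by these ligands, was at 1929, 2001 and 2483 against 1934, 2053 and 1920 CPM (log2 fold change 0.12, edgeR adjusted p = 0.6). H2-D1, the H-2D heavy chain, had a log2 fold change of 0.02 (edgeR adjusted p = 0.912).

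Transcription factors of NK and Ly49 expression were split, with 4 of 17 lower, 0 higher and a median of -0.59 for the log2 fold changes. Eomes, a T-box factor of conventional NK cells, was at 36.3, 32.2 and 37.2 against 199.6, 182.1 and 251.2 CPM (log2 fold change -2.58, edgeR adjusted p = 0.000428). Tbx21, the related factor T-bet, had -2.28 (edgeR adjusted p = 0.000428), Gata3 -2.27 (edgeR adjusted p = 0.00643) and Tox -1.81 (edgeR adjusted p = 0.0116). Tcf7, which encodes TCF-1 and is known to be needed for Klra1 expression, was at 124.6, 34.4 and 31.7 CPM in CD36+ NK and 130.9, 144.1 and 181.9 CPM in CD36- NK. The log2 fold change of Tcf7 was -1.26 (edgeR adjusted p = 0.174) with all libraries and -2.22 (edgeR adjusted p = 0.00195) without CD36+ NK replicate 1, in which T cell genes such as Cd3e (27.0 CPM, against 0.147 and 0.0831 in the other CD36+ NK libraries) were high. Klra1 in that library was at 8.01 CPM, beside 6.99 and 6.57 CPM in the others. Spi1, the myeloid and B cell factor PU.1, had 0.71 (edgeR adjusted p = 0.02), under the fold threshold.

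The genes whose log2(CPM + 2) followed the summed CPM of the 10 members most closely over the 6 libraries were Dennd4c (Pearson r = 0.998), Ubac2 (0.998), Gm36496 (0.997), Kcnip3 (0.997) and Pald1 (0.997), among 10000 genes with a mean of at least 10 CPM outside the family. For Klra2 they were Nupr1 (0.998), Pts (0.996), Zfand1 (0.992), Pomk (0.992) and Mavs (0.991). For Klra5 they were Mmd, Sppl3, Gnptg, Cetn2 and Smad3 (0.996 to 0.999), and for Klra17 Dnal4, Scmh1, Fbxo5, Gm12338 and 3110040N11Rik (0.964 to 0.989). These values describe 6 libraries that fall into a pair of groups. Nupr1 was at 13.5, 33.9 and 25.5 CPM in CD36+ NK and 10.8, 18.3 and 5.47 CPM in CD36- NK, the same order of libraries as Klra2.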

How the data were processed

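Counts per gene of 3 CD36+ NK and 3 CD36- NK libraries were used as the authors deposited them, without normalization. Per the paper's methods, reads were filtered with Seqtk, mapped with HISAT2 2.0.4 and counted with StringTie. The submitters' processing notes name mRatBN7.2, a rat assembly, although the identifiers are those of mouse genes; the table names no build. The FPKM values that the authors deposited were counts divided by gene length and library total, within 1%, in 100% of the 7439 genes with over 200 counts in every library. They served only to compare levels between genes and the genes' shares of summed FPKM between the groups. Library names of the samples titled CD36+ read CD36--NK and those of the samples titled CD36- read CD36-NK. Titles were followed, and Cd36 counts put all 3 libraries titled CD36+ above the other 3. The lines of 2 genes were broken and rejoined.

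Genes were filtered by filterByExpr with a minimum count of 10, scaled by TMM and tested with the quasi-likelihood test of edgeR 4.0.16 in R 4.3.3 without a block, with Benjamini-Hochberg adjustment over 14761 genes. A gene was called where its adjusted p was under 0.05 and its fold change over 2. Each standard error (SE) is the size of the log2 fold change over the root of its F statistic. Totals were 10292480 to 13787189 counts per library, and the biological coefficient of variation was 20.3%. Replicates differed beyond sampling noise (chi-square per degree of freedom 14.8 to 29.2). The test was checked on simulated data. The fits were repeated with DESeq2 1.42.0 and edgeR's exact test, with other scalings, filters, fold thresholds and blocks, and with each library left out.

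The members and gene lists were chosen with earlier results of these data known. Named were all members and cluster rows, from each list the 3 genes of lowest p in each direction and a few fixed genes, and the most expressed markers; Cd247, Zap70, Lck, Tox, H2-D1, C1qb, Siglech, Clec4f, Cd3e, Cd8a, Cox6a2, Klre1, Il18rap, Adamts14, Xcr1, Clec9a, Itga1, Tnfsf10, Cma1 and Nupr1 were among those added after their values were seen or for their rank. The likeness of genes is Pearson r of log2(CPM + 2).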

Additional observations from a re-analysis of the deposited data

How the results depend on the processing

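The same 8 members were lower in CD36+ NK in all 15 refits, and 0 members were higher in any. Klra5 came closest to the threshold, with a highest edgeR adjusted p of 0.0432. With no fold threshold or a threshold of 4 the count of lower members was also 8. The count of members below the NK list was 4 under every scaling, filter, constant and reference tried, except 5 without CD36+ NK replicate 3 and 6 against the conventional NK list. Over the refits that left out 1 library, these counts ran from 8 to 8 (lower), from 0 to 0 (higher) and from 4 to 5 (relative to the NK list). Klra17 could not be tested under a filter of 10 counts in each library, and its sign turned without CD36+ NK replicate 2 (0.16) or 3 (0.04) and without CD36- NK replicate 1 (0.02) or 2 (0.18), within a range of -0.76 to 0.18 over the refits that left out 1 library; the cause was not tested.

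Replicate numbers come from the titles, and no source says whether they pair the samples. Deviations of same-numbered libraries correlated at 0.31, 0.0515 and -0.0837, and 1 of 3 numbers correlated best with itself. So few values do not show pairing and cannot exclude it. With the replicate block, 8 members were lower and 0 higher, while calls over all genes went from 880 to 560. A block by the number in the library name, chosen after seeing the data, gave 413 calls over all genes and 8 lower members, and a block by the form of the library name gave 912 and 8. Calls over all genes were 1143 with DESeq2, 1247 with the exact test, and 417 to 1160 with 1 library left out. Counts of 6 to 28 limit Klra17, and 3 libraries per group limit every exact test to p = 0.1.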
